A study of Mus musculus with 6 samples.

Results

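Cyclic nucleotide phosphodiesterases hydrolyse the second messengers cyclic AMP and cyclic GMP. The genes described here are the 10 of the deposited table whose symbol is Pde3a, Pde3b, Pde4a, Pde4b, Pde4c, Pde4d, Pde7a, Pde7b, Pde8a or Pde8b, out of 56691 genes. They were chosen by name, as enzymes that break down cyclic AMP, and each matched 1 row. All 10 passed the filter on low counts and were tested.

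In fat, noradrenaline acts on beta-adrenergic receptors, adenylyl cyclases make cyclic AMP, and protein kinase A then drives lipolysis and the thermogenic programme. Phosphodiesterases end that signal. PDE3B is the enzyme through which insulin lowers cyclic AMP in adipocytes and restrains lipolysis. The PDE4, PDE7 and PDE8 enzymes are specific for cyclic AMP, PDE4 being the target of rolipram, while the PDE3 enzymes bind both nucleotides and are inhibited by cyclic GMP.

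The RNA came from inguinal white adipose tissue, the fat under the skin of the groin, of male C57BL/6J mice that were 8 weeks old when housing began and were kept that way for 8 weeks. The single-housed group had 3 mice with 1 mouse per cage, and the group-housed group had 3 mice from cages of 4 to 6. Each mouse gave 1 bulk RNA-seq library, with 21410779 to 35318376 counted fragments in the single-housed and 22002000 to 33982084 in the group-housed libraries. The labels do not say whether mice of the group-housed group shared a cage or a litter, in which case they would not be independent, and in bulk tissue fewer cells of a type and less RNA per cell cannot be told apart.

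The libraries differed in tissue content also within each housing group. The adipocyte markers, all 12 of them detected, summed to 4240 to 5790 FPKM in the single-housed and 3490 to 6010 FPKM in the group-housed libraries (FPKM, the fragments of a gene per exon length and library total). The 16 skeletal muscle markers summed to 4050 FPKM in single-housed library 3 and 1470 FPKM in group-housed library 2, against 39.3 to 357 FPKM in the other 4. A lymph node lies within this fat, and the 10 B cell markers summed to 192 FPKM in single-housed library 3, against 457 to 768 FPKM in the other 5. None of these markers was at 0 in all libraries.

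With edgeR's quasi-likelihood test and Benjamini-Hochberg adjustment, 0% of 18085 genes passed at an adjusted p below 0.05, the smallest adjusted p being 0.120. None of the 10 phosphodiesterases passed. At an unadjusted p below 0.05 in edgeR, 3 of the 10 were higher in single housing and 0 lower, beside 3.49% of all tested genes higher and 3.47% lower. These were Pde4a, Pde8a and Pde4d. On counts scaled by library totals alone, all 3 single-housed libraries lay above all 3 group-housed ones in the same 3 genes. This held for 5.02% of all genes. In the opposite direction the groups lay apart for 0 of the 10, beside 9.21% of all genes. DESeq2 called 1 of the 10, Pde4a, beside 1.15% of the 18064 genes to which it gave an adjusted p. The median log2 fold change of the 10 was 0.25, with 8 above 0, while over all tested genes the median was -0.01 and 48.1% lay above 0. The count at an unadjusted p below 0.05 was 1 without group-housed library 1 and also 1 without group-housed library 3, where 802 and 815 of all genes reached it, against 1259 with all 6 libraries. It was 4 without the 2 libraries rich in muscle transcripts, single-housed 3 and group-housed 2, where 2269 of all genes reached it.

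**Figure D1:**
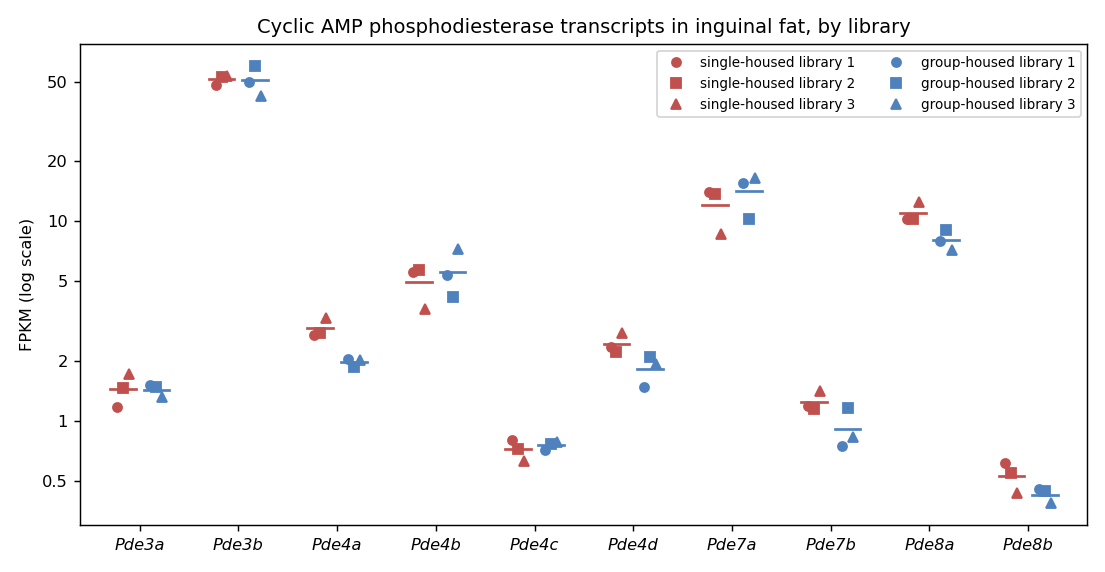
FPKM on a log scale for the 10 phosphodiesterase genes, with 1 point per library, single-housed in red and group-housed in blue, and a line at each group's mean. Pde3b lies at 42.3 to 59.9 FPKM, above every other member, and the red and blue points are apart for Pde4a, Pde4d and Pde8a.

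Pde3b made up most of the phosphodiesterase transcript measured here. Per length, it held between 52.6% and 65.7% of the summed FPKM of the 10 genes in each library. Next in mean FPKM over the 6 libraries came Pde7a (13.1), Pde8a (9.54), Pde4b (5.28), Pde4a (2.45), Pde4d (2.14), Pde3a (1.45), Pde7b (1.08), Pde4c (0.742) and Pde8b (0.482). The ranges over the 6 libraries were apart between Pde3b and Pde7a, between Pde4b and Pde4a, and between Pde4c and Pde8b. The other neighbours in this order had overlapping ranges. The summed FPKM of all 10 was 86.6, 91.5 and 88.5 in single-housed libraries 1, 2 and 3, against 85.7, 91.2 and 80.6 in group-housed libraries 1, 2 and 3. These sums overlapped between the groups, with means of 88.9 ± 2.42 FPKM under single and 85.8 ± 5.29 FPKM under group housing (SD, n = 3 each).

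**Figure D2:**
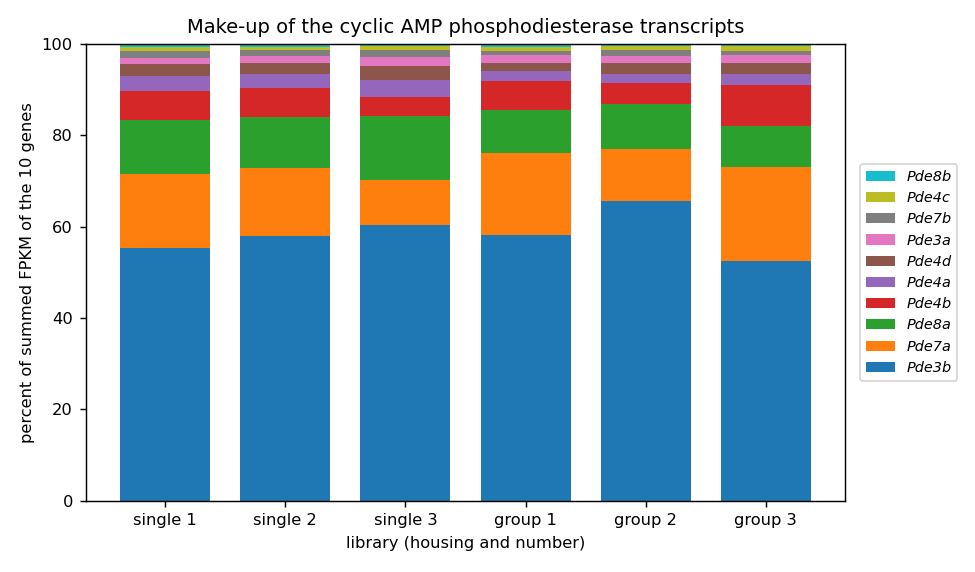
Share of each gene in the summed FPKM of the 10 phosphodiesterases, in percent, 1 bar per library with single-housed libraries on the left. Pde3b takes 52.6% to 65.7% of every bar, and the Pde7a share is smallest in single-housed library 3 (9.72%) and largest in group-housed library 3 (20.5%).

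The level of Pde3b, the insulin-regulated enzyme of adipocytes, differed between the groups by less than the spread within them. Pde3b (ENSMUSG00000030671; mm39 chromosome 7, 114014516 to 114138486, plus strand) stood at 47.89, 52.93 and 53.47 FPKM in single-housed libraries 1, 2 and 3, against 49.92, 59.89 and 42.34 FPKM in group-housed libraries 1, 2 and 3. The group-housed values spanned a wider range that enclosed all 3 single-housed ones. Its log2 fold change was 0.10 ± 0.20 (SE; edgeR adjusted p = 0.931), with a 95% interval of -0.38 to 0.58, or 0.770-fold to 1.49-fold. Differences beyond 1.49-fold upward thus lay outside the interval, while smaller ones could not be resolved with 3 mice per group. The sign turned without group-housed library 3 (-0.04) and with the B cell marker level as a covariate (-0.01). Its highest level, in group-housed library 2, and its lowest, in group-housed library 3, fell in the same libraries as the highest and lowest adipocyte marker sums, 6010 and 3490 FPKM. On the TMM-scaled log2 CPM, however, the mean of those markers was highest in single-housed library 3 (9.84, against 9.67 in group-housed library 2).

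Pde3a, the other PDE3 enzyme, is best known from heart, platelets, smooth muscle and the oocyte. Pde3a (chromosome 6, 141194995 to 141453174) stood at 1.18, 1.46 and 1.73 FPKM in single-housed libraries 1, 2 and 3, against 1.51, 1.48 and 1.33 FPKM in group-housed libraries 1, 2 and 3. The single-housed values lay on both sides of the group-housed ones. Per length, Pde3b exceeded Pde3a 31.0-fold to 40.7-fold in the 6 libraries. The log2 fold change of Pde3a was 0.11 ± 0.20 (edgeR adjusted p = 0.926) and turned to -0.04 without the 2 muscle-rich libraries and to -0.10 without single-housed library 3 alone. Pde3a was highest in single-housed library 3, where smooth muscle and mural cell markers were also highest, at 186 FPKM in sum against 124 to 164 FPKM elsewhere; their part in its level was not tested.

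Of the PDE4 genes, Pde4a stood higher in every single-housed library. PDE4A, like the other PDE4 enzymes, comes in several forms made from separate start sites, and the counts used here sum over them. Pde4a (ENSMUSG00000032177; chromosome 9, 21077010 to 21124544, plus strand) stood at 2.71, 2.76 and 3.29 FPKM in single-housed libraries 1, 2 and 3, against 2.04, 1.86 and 2.03 FPKM in group-housed libraries 1, 2 and 3. The groups did not overlap, and the lowest single-housed value was clear of the highest group-housed one. In counts these were 732, 453 and 625 fragments under single housing, against 345, 313 and 528 under group housing. The log2 fold change was 0.66 ± 0.16 (SE), or 1.58-fold, with a 95% interval of 1.23-fold to 2.04-fold. In edgeR the adjusted p was 0.424, so Pde4a did not pass over all genes, while DESeq2 gave an adjusted p of 0.0472. With the mean level of the muscle markers as a covariate edgeR gave 0.65 on the log2 scale, with an adjusted p of 0.0149. Under that covariate 2 of the 10 phosphodiesterases, Pde4a and Pde8a, were higher past the threshold, beside 2.36% of all tested genes. Over all 17 alternatives to the test the adjusted p of Pde4a ran from 0.0149 to 1.00, and its log2 fold change from 0.40 to 0.75, without a change of sign.

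Pde4d, the PDE4 gene most studied in heart and brain, was likewise higher in every single-housed library by FPKM. It stood at 2.35, 2.21 and 2.77 FPKM in single-housed libraries 1, 2 and 3, against 1.48, 2.09 and 1.93 FPKM in group-housed libraries 1, 2 and 3. The groups were apart in FPKM, although single-housed library 2 and group-housed library 2 lay close together. On the TMM-scaled log2 CPM both of these libraries lay 0.04 above the mean over libraries and did not differ at that precision. Its log2 fold change was 0.51 ± 0.20 (edgeR adjusted p = 0.694). Pde4d is the longest of these genes, spanning 1503514 bases of chromosome 13 (108586482 to 110089995), with 12006 bases of exon. The ribosomal protein gene copy Rps3a3, on the same strand, lies within it and had 74 to 222 counts per library, while Pde4d itself had 392 to 997.

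Pde4b, which in leukocytes limits the cyclic AMP brake on inflammatory cytokines, had the highest level of the PDE4 genes and did not separate the groups. It stood at 5.55, 5.70 and 3.66 FPKM in single-housed libraries 1, 2 and 3, against 5.39, 4.16 and 7.23 FPKM in group-housed libraries 1, 2 and 3. Both the lowest single-housed and the lowest group-housed value fell in the muscle-rich libraries. Its log2 fold change was -0.08 ± 0.19 (edgeR adjusted p = 0.939), with a 95% interval of 0.688-fold to 1.30-fold. The sign turned without single-housed library 3 (0.05), without group-housed library 3 (0.10) and with the B cell covariate (0.08). Pde4c was near the low end, at 0.81, 0.73 and 0.63 FPKM in single-housed libraries 1, 2 and 3, against 0.72, 0.77 and 0.79 FPKM in group-housed libraries 1, 2 and 3. These values overlapped, and its log2 estimate of 0.01 ± 0.19 became -0.07 when counts were scaled by library totals alone. Within the PDE4 genes, Pde4a held 23.7%, 24.3% and 31.8% of the summed FPKM in single-housed libraries 1, 2 and 3, against 21.2%, 20.9% and 16.9% in group-housed libraries 1, 2 and 3. The PDE4 sum itself overlapped between groups, at 11.1 ± 0.614 FPKM under single and 10.2 ± 1.62 FPKM under group housing (SD, n = 3 each).

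Cyclic AMP itself can feed back on phosphodiesterase genes through the factor CREB, which binds the cyclic AMP response element, whose core is TGACG on either strand (CGTCA on the other). RefSeq windows of 300 bases around annotated starts (250 before and 50 after, build GRCm38.p6) were at hand for 7 of the 10 genes, namely Pde4a, Pde4b, Pde4c, Pde4d, Pde7b, Pde8a and Pde8b, in 16 windows of which some overlap. The core was present in 4 of the 16, 1 each of Pde4a, Pde4b, Pde8a and Pde8b, while 20.8% of all 32851 windows in the same table hold one. The full element TGACGTCA was in 0 of the 16, against 1.79% of all windows. Shown here are the windows with the core of Pde4a and Pde8a, the genes of smallest p among the 10, and that of Pde4b, whose groups overlapped, with the core in capitals. The Pde4a window is the second of 3 (chr9:21183851-21184150, plus strand), the Pde8a window is the single one (chr7:81213015-81213314, plus strand), and the Pde4b window is the first of 4 (chr4:102421305-102421604, plus strand).
Pde4a: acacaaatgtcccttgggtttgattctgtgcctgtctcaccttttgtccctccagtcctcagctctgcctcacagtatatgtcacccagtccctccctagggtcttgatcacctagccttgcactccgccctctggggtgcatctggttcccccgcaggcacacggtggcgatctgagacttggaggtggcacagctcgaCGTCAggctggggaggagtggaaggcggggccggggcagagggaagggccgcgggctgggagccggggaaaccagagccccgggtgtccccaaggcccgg
Pde8a: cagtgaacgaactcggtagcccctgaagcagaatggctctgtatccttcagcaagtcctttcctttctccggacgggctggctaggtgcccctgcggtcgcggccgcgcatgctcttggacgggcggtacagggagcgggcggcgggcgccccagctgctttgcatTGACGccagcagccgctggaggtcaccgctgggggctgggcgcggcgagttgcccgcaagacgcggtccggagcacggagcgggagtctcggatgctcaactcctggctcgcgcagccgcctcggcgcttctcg
Pde4b: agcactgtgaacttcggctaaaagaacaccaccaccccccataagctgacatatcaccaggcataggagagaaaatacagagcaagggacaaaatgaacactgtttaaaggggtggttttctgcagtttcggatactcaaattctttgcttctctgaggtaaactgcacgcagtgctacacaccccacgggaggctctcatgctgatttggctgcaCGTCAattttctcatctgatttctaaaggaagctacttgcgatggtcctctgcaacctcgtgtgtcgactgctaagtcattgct
The core begins 50 bases before the start in Pde4a, 84 in Pde8a and 34 in Pde4b. Pde4a and Pde4b each carry further starts whose windows lack the core, and counts per gene do not tell which start was used. The core was thus in windows of Pde4a and Pde8a, whose groups were apart in FPKM, and of Pde4b and Pde8b, whose groups overlapped. Pde4c and Pde7b, whose groups also overlapped, had windows without it. Nor was the core in the single window at hand for Pde4d, whose groups, like those of Pde4a and Pde8a, were apart in FPKM. Windows at other starts of Pde4d were not at hand. A match describes the letters only.

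PDE8 enzymes have a high affinity for cyclic AMP and, unlike PDE3 and PDE4, are not blocked by the broad inhibitor isobutylmethylxanthine. Pde8a (ENSMUSG00000025584; chromosome 7, 80863344 to 80984281, plus strand) stood at 10.28, 10.28 and 12.51 FPKM in single-housed libraries 1, 2 and 3, against 7.97, 9.01 and 7.16 FPKM in group-housed libraries 1, 2 and 3. All single-housed values lay above all group-housed ones. The log2 fold change was 0.55 ± 0.19 (SE), or 1.46-fold, with a 95% interval of 1.08-fold to 1.98-fold and an edgeR adjusted p of 0.635. DESeq2 gave an adjusted p of 0.360. With the muscle covariate the log2 fold change was 0.54 and the edgeR adjusted p 0.0126. Without the 2 muscle-rich libraries the log2 fold change was 0.51 (edgeR adjusted p = 0.181). Pde8a also took a larger share of the phosphodiesterase pool, with 11.9%, 11.2% and 14.1% in single-housed libraries 1, 2 and 3, against 9.30%, 9.89% and 8.89% in group-housed libraries 1, 2 and 3.

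Its paralog Pde8b, best known from the adrenal gland and thyroid, was the lowest of the 10, with 64 to 128 counts in the single-housed and 58 to 77 in the group-housed libraries. It stood at 0.62, 0.55 and 0.44 FPKM in single-housed libraries 1, 2 and 3, against 0.46, 0.45 and 0.39 FPKM in group-housed libraries 1, 2 and 3. Single-housed library 3 fell within the group-housed range. The log2 fold change was 0.40 ± 0.22 (edgeR adjusted p = 0.800). The non-coding gene Gm48420 overlaps it on the opposite strand with 7 to 30 counts, and no source used here says if strand was used in counting.

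**Figure D3:**
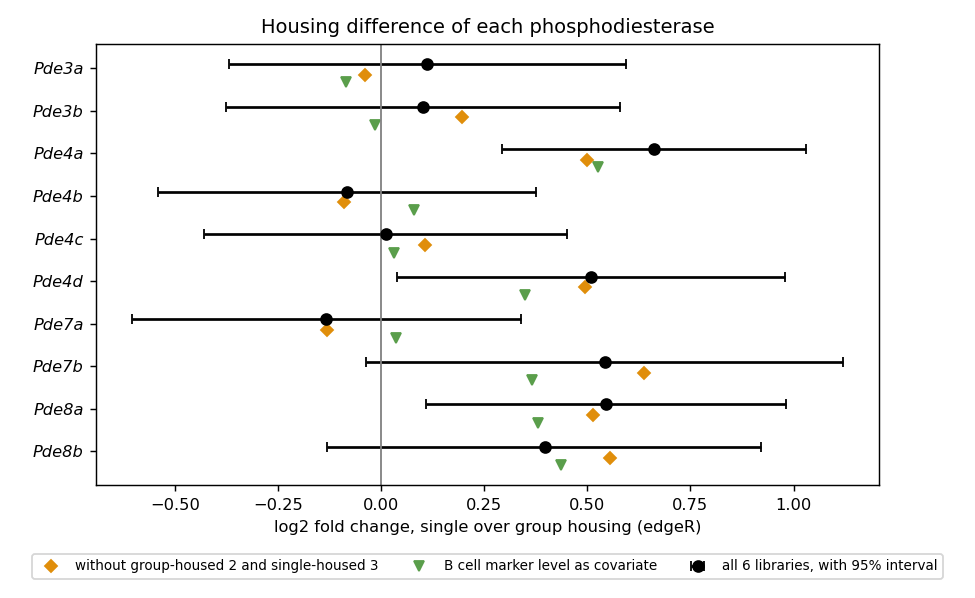
Log2 fold change of single over group housing for each gene from edgeR, in black with its 95% interval, and the estimates without the 2 muscle-rich libraries (orange) and with the B cell marker level as a covariate (green). The intervals of Pde4a, Pde4d and Pde8a lie above 0, while Pde3a, Pde3b, Pde4b and Pde7a change sign under at least 1 of the 2 alternatives shown.

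PDE7 enzymes are cyclic AMP-specific, and PDE7A was first studied in T cells and skeletal muscle. Pde7a (ENSMUSG00000069094; chromosome 3, 19277272 to 19365486, minus strand) stood at 14.07, 13.70 and 8.60 FPKM in single-housed libraries 1, 2 and 3, against 15.46, 10.28 and 16.54 FPKM in group-housed libraries 1, 2 and 3. The groups overlapped, and the lowest value of each fell in its muscle-rich library. Its log2 fold change was -0.13 ± 0.20 (edgeR adjusted p = 0.915), with a 95% interval of 0.658-fold to 1.27-fold. It turned to 0.02 without single-housed library 3 and to 0.04 with the B cell covariate. Pde7a and Pde4b both had their highest FPKM in group-housed library 3 and their lowest in single-housed library 3. So had the sums of the B cell markers (768 and 192 FPKM), the T and NK cell markers (421 and 107 FPKM) and the macrophage markers (1360 and 637 FPKM). On the TMM-scaled log2 CPM, however, the macrophage mean was lowest in single-housed library 1 (5.35). Whether lymph node or macrophage content set these levels was not tested, and 6 libraries of bulk tissue do not assign a transcript to a cell type.

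Pde7b, described mainly in brain, had a lower level than Pde7a in every library. It stood at 1.19, 1.15 and 1.42 FPKM in single-housed libraries 1, 2 and 3, against 0.75, 1.16 and 0.83 FPKM in group-housed libraries 1, 2 and 3. The groups met at group-housed library 2, which lay just above single-housed library 2. The log2 fold change was 0.54 ± 0.25 (edgeR adjusted p = 0.745), and it was 0.64 (edgeR adjusted p = 0.169) without the 2 muscle-rich libraries. The PDE7 sum, 13.4 ± 2.91 FPKM under single and 15.0 ± 3.14 FPKM under group housing (SD, n = 3 each), followed Pde7a.

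**Figure D4:**
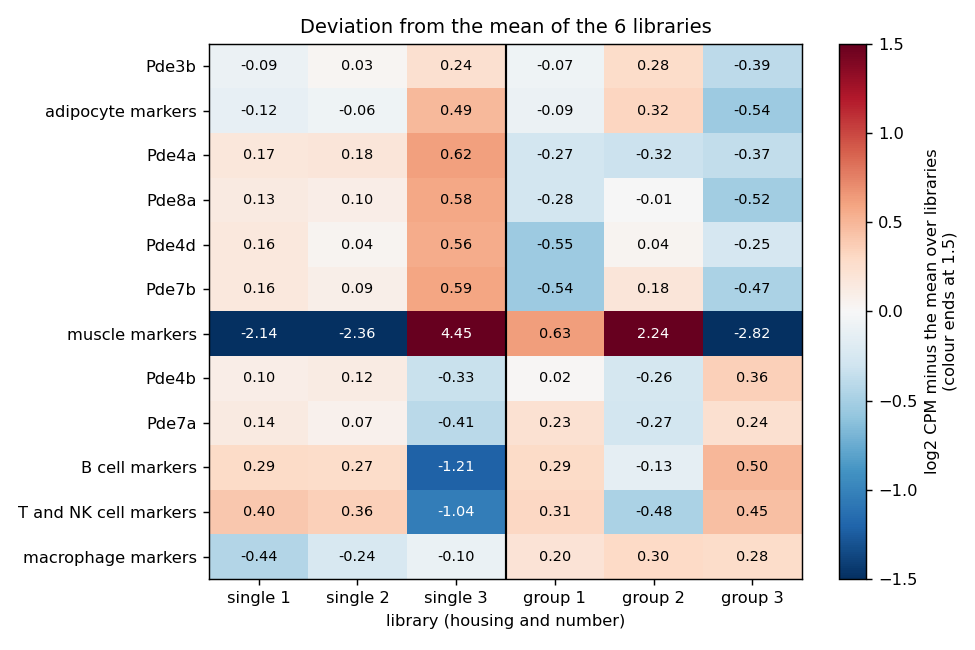
Log2 CPM (counts scaled to library size with TMM) minus the mean over the 6 libraries, for 7 of the phosphodiesterases and for the mean of 5 marker lists, with single-housed libraries left of the black line. Pde4b (-0.33) and Pde7a (-0.41) are lowest in single-housed library 3, as are the B cell (-1.21) and T and NK cell markers (-1.04). Pde4a, Pde8a, Pde4d and Pde7b are highest there, as are the muscle (4.45) and adipocyte markers (0.49). So are the Schwann cell (0.92), smooth muscle and mural cell (0.52) and endothelial markers (0.48), which are not drawn.

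Single-housed library 3 held the highest level of Pde4a, Pde4d, Pde7b and Pde8a and also most muscle transcript. On the TMM-scaled log2 CPM, adipocyte, endothelial, smooth muscle and Schwann cell markers were highest in that library too. For Pde4a the log2 fold change without that library was 0.50 (edgeR adjusted p = 0.486) and for Pde8a 0.38 (edgeR adjusted p = 0.826). It was 0.34 for Pde4d (edgeR adjusted p = 0.954) and 0.38 for Pde7b (edgeR adjusted p = 0.998). The 4 estimates stayed above 0 in each of the 17 alternatives. These reuse the same libraries, and the 4 genes have the largest estimates of the phosphodiesterases described, so a kept sign adds little. With the B cell markers as a covariate they were 0.53 for Pde4a, 0.38 for Pde8a, 0.35 for Pde4d and 0.37 for Pde7b. Of the 12 macrophage markers, 6 were lower in single housing in edgeR at an unadjusted p below 0.05 and 0 higher, beside 3.47% and 3.49% of all tested genes, and the sum of the 12 was 637 to 944 FPKM in the single-housed and 911 to 1360 FPKM in the group-housed libraries. Endothelial markers summed to 178 to 214 FPKM in the single-housed and 152 to 172 FPKM in the group-housed libraries, with 3 of 8 higher at that p, beside 3.49% of all tested genes. These endothelial sums did not overlap between the groups. On the TMM-scaled log2 CPM, however, the endothelial mean was 6.40 in both single-housed library 1 and group-housed library 2. The macrophage mean on that scale was apart, at 5.35 to 5.68 in the single-housed and 5.98 to 6.08 in the group-housed libraries. The part of these cell types in the phosphodiesterase levels was not tested.

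The profile of Pde3b over the 6 libraries was compared with that of every other tested gene by the root mean square difference of log2 CPM (counts scaled to library size), each centred on its own mean. The nearest were Sh3glb2 (0.033), Sdc2 (0.041), Tmcc3 (0.044), Sgcd (0.048) and Prkag2 (0.055), where the median gene was 0.320 away. With 6 libraries and 18085 genes, near matches of this kind are a description of these libraries only.

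Genes upstream and downstream of the phosphodiesterases were read from 10 lists that hold 104 distinct genes, of which 96 were tested. None passed in edgeR at an adjusted p below 0.05. At an unadjusted p below 0.05 in edgeR 7 were higher and 2 lower, beside 3.49% and 3.47% of all tested genes. DESeq2 called 2 higher, Ucp1 and Gnao1, and 0 lower, beside 1.15% of all genes in either direction. The median log2 fold change of the 96 was 0.09, with 58 above 0.

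On the side of cyclic AMP synthesis, 1 of 9 tested adenylyl cyclases was higher at that p, beside 3.49% of all tested genes. This was Adcy3, whose mean FPKM lay below those of Adcy5, Adcy6 and Adcy7. Adcy3 stood at 5.80, 5.53 and 8.04 FPKM in single-housed libraries 1, 2 and 3, against 3.27, 4.50 and 3.94 FPKM in group-housed libraries 1, 2 and 3 (log2 fold change 0.83 ± 0.24; edgeR adjusted p = 0.577). The groups were apart. Of 11 tested receptors and G protein alpha subunits, 2 were higher at that p and 0 lower, beside 3.49% and 3.47% of all tested genes. The higher ones were Adrb1 (log2 fold change 0.69 ± 0.28, edgeR adjusted p = 0.702) and Gnao1 (1.36 ± 0.17, edgeR adjusted p = 0.12). Adrb3, the main beta-adrenergic receptor of mouse adipocytes, had wide and overlapping levels of 67.11, 100.98 and 103.94 FPKM in single-housed libraries 1, 2 and 3, against 87.65, 144.58 and 58.84 FPKM in group-housed libraries 1, 2 and 3. Its log2 fold change was -0.03 ± 0.38, and it was 0.44 without group-housed library 2.

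Downstream, Prkar2b, the regulatory subunit of protein kinase A that prevails in fat, stood at 184, 179 and 237 FPKM in single-housed libraries 1, 2 and 3, against 179, 191 and 131 FPKM in group-housed libraries 1, 2 and 3. These values overlapped (log2 fold change 0.35 ± 0.25; edgeR adjusted p = 0.840). Of the 9 genes of protein kinase A and its inhibitors, 1 was lower at an unadjusted p below 0.05 in edgeR and 0 were higher. Over all tested genes these shares were 3.47% and 3.49%. The lower one was Pkig, an inhibitor (log2 fold change -0.29 ± 0.12, edgeR adjusted p = 0.714). Abhd15, a partner protein of PDE3B in adipocytes, had a log2 fold change of 0.09 ± 0.21, and Akt2, the kinase through which insulin acts on PDE3B, one of 0.27 ± 0.21. Lipe, the hormone-sensitive lipase that protein kinase A phosphorylates, had one of 0.14 ± 0.23. In the insulin, lipolysis, anchoring and other-effector lists 0 genes of 36 tested reached an unadjusted p below 0.05 in edgeR. Over all tested genes, 3.49% were higher and 3.47% lower at that p.

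The CREB list held CREB family factors, the coactivators Crtc1, Crtc2 and Crtc3, and genes that CREB is known to induce. Of its 20 genes, 3 were higher and 1 lower at an unadjusted p below 0.05 in edgeR. Over all tested genes these shares were 3.49% and 3.47%. The median log2 fold change of the 20 was 0.004, with 10 above 0. The groups were apart for 3 genes higher (Ucp1, Nr4a2 and Ppargc1a) and 3 lower (Per1, Crem and Nr4a3) in single housing. Over all tested genes these shares were 5.02% and 9.21%. Those higher at an unadjusted p below 0.05 in edgeR were Ucp1 (2.10 ± 0.21), Nr4a2 (0.51 ± 0.20) and Ppargc1a (0.46 ± 0.18). The one lower at that p was the clock gene Per1 (-0.41 ± 0.14), all as log2 fold changes. The paralogs of Nr4a2, Nr4a1 (-0.47) and Nr4a3 (-0.79), lay in the opposite direction and did not reach that p. Crem, whose short form ICER represses CREB targets, stood at 2.57, 2.55 and 2.59 FPKM in single-housed libraries 1, 2 and 3, against 3.10, 3.68 and 3.11 FPKM in group-housed libraries 1, 2 and 3. These groups were apart, at a log2 fold change of -0.27 ± 0.15 (adjusted p in edgeR, 0.800), and counts per gene do not show the form. Of the phosphodiesterases outside the 10, Pde10a, which breaks down both nucleotides, was higher at that p at a low level, 0.43, 0.51 and 0.39 FPKM in single-housed libraries 1, 2 and 3, against 0.26, 0.34 and 0.33 FPKM in group-housed libraries 1, 2 and 3. The edgeR adjusted p of Pde10a was 0.637. The other 5 enzymes of dual specificity and the 5 tested cyclic GMP phosphodiesterase genes did not reach an unadjusted p below 0.05 in edgeR. Over all tested genes, 3.49% were higher and 3.47% lower at that p.

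**Figure D5:**
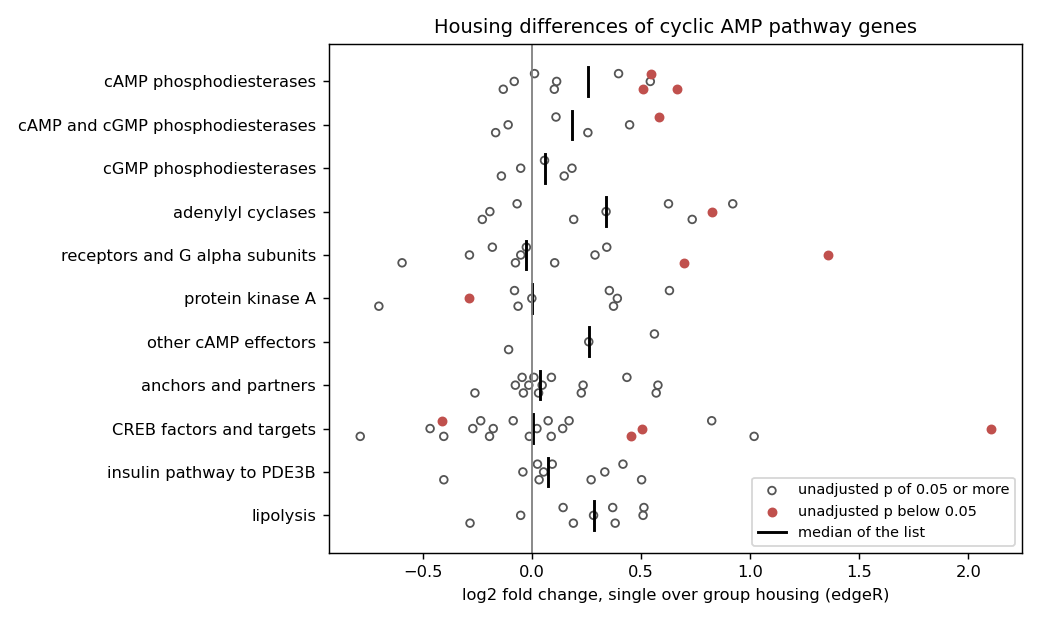
Log2 fold change of single over group housing for each tested gene of the 10 phosphodiesterases (top) and of 10 cyclic AMP pathway lists, filled where the unadjusted edgeR p is below 0.05, with a black line at each list's median. The medians run from -0.03 for receptors and G protein subunits to 0.34 for adenylyl cyclases, with 0.25 for the 10 phosphodiesterases.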

How the data were processed

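RNA was sequenced from 6 libraries, 3 single-housed and 3 group-housed. Total RNA was TRIzol-extracted, DNase-treated and column-purified, per the labels' protocols. The submitters' processing notes name the build mm39. How reads were aligned and counted, with which annotation and whether by strand, no source used here says. The deposited table holds raw counts of fragments per gene, not normalized by the authors. The deposited FPKM are the authors' counts per summed exon length and library total (100% of values equalled that quotient within 0.0051), so they carry no composition correction. A further 24 columns of per-sample values, named for other tissues, were not used.

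Counts were tested with edgeR 4.0.16 in R 4.3.3 (filterByExpr, TMM, quasi-likelihood F test, two-sided, Benjamini-Hochberg over 18085 genes, threshold 0.05). Fold changes are single over group housing, the standard error is the size of the log2 fold change over the root of F, and 95% intervals use the t distribution with 7.09 degrees of freedom. TMM factors ran from 0.8931 to 1.096. With library totals alone the median log2 fold change of all genes was -0.0992. Alternatives were DESeq2 1.42.0, other scalings, no filter, limma 3.58.1 on log2(FPKM + 1) or log2(FPKM + 0.1), left-out libraries, marker covariates and a replicate block. The scripts were tested on simulated data. P-values rest on the spread between 3 mice per group, with each gene's variance estimate moderated by those of all genes. They take the mice as independent.

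The members, the lists and the rule for named genes were chosen with earlier results of these data known. The rule takes all 10 members, 6 pathway genes whatever their values (Adrb3, Lipe, Prkar2b, Abhd15, Akt2 and Crem), up to 2 genes per direction of smallest p in each pathway list, and the 5 genes nearest to Pde3b in profile. Of the pathway genes it allows, the 8 at an unadjusted p below 0.05 and those 6 are named. Nr4a2 and Nr4a1 fall outside it and were, with Nr4a3, chosen after their values were seen. Promoter windows are RefSeq's, build GRCm38.p6, and their coordinates are not comparable with the mm39 ones.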

Additional observations from a re-analysis of the deposited data

How the results depend on the processing

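The counts of genes past each threshold and the fold change of each named gene were recomputed under 17 alternatives, of which 15 tested Pde4c, Pde8b and Pde10a, and the cause of a difference between them was not tested. Levels, shares, marker sums, medians, profile distances and promoter matches were not recomputed under them. The count of genes past the threshold, 0 in edgeR, was 207 with DESeq2, 53 with no low-count filter, 22 without the 2 muscle-rich libraries (single-housed 3 and group-housed 2), 938 with the muscle covariate and 143 with the B cell covariate, and 0 in the other 12. Of the 10 phosphodiesterases 1 passed with DESeq2 and 2 with the muscle covariate, and of the pathway genes 2, 2, 1, 8 and 2 passed under those 5 settings in the order given. The count of phosphodiesterases at an unadjusted p below 0.05, 3 in edgeR, was between 1 and 4 with 1 library left out, where 802 to 1799 of all genes reached that p, and 1 with the replicate number as a block, where 590 did, against 1259 in the fit of all 6 libraries without a block. That block rests on a number alone. The deviations of same-numbered libraries from their group's mean correlated at 0.121, -0.562 and -0.702. With 3 libraries per group that also differ in tissue content, these values cannot tell whether the numbers pair the mice. The block left 0 genes past the threshold.

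Pde4a, Pde4d, Pde7b, Pde8a and Pde8b kept their sign in every alternative that tested them (limma with a filter left out Pde4c and Pde8b). The log2 fold change turned to -0.0397 for Pde3a and 0.258 for Adrb3 without the 2 muscle-rich libraries. With the B cell covariate it was -0.0841 for Pde3a, -0.0147 for Pde3b, 0.0798 for Pde4b, 0.0369 for Pde7a, -0.0604 for Abhd15 and -0.0199 for Lipe. Pde4c turned to -0.073 with library totals only and to -0.0315 with limma without a filter. Adrb3 turned to 0.059 with the muscle covariate and to 0.0503 with the replicate block. Pde4c and Pde8b, with 58 to 161 counts per library, are the members whose counting error is largest.

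Over the 6 fits that each leave out 1 library, the log2 fold change ran from -0.101 to 0.277 for Pde3a, from -0.0406 to 0.292 for Pde3b, from -0.219 to 0.0986 for Pde4b, from -0.0532 to 0.0682 for Pde4c, from -0.28 to 0.0201 for Pde7a, from -0.0441 to 0.31 for Abhd15, from -0.303 to 0.443 for Adrb3 and from -0.0146 to 0.353 for Lipe.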
